A study of Mus musculus with 4 samples.

Results

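Some Gata6 peaks, the stretches of DNA found bound by this factor, lay very close to another one. In the list of Gata6 peaks for primary mouse keratinocytes, 808 peaks (6.66% of the whole list, 95% Wilson interval 6.23 to 7.11) had another listed peak on the same chromosome with its midpoint at most 1 kb away. These peaks were chosen by position alone, and they formed 409 pairs of neighbours. Of the 399 sets they fell into, 389 held 2 peaks and 10 held 3 peaks, each within 1 kb of the next. The remaining 11329 peaks, 93.3% of the list, had no listed neighbour that close.

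The list came from a series of 4 chromatin immunoprecipitation sequencing libraries, in which antibody-bound DNA is recovered and sequenced: 2 with different Gata6 antibodies (one from R&D Systems, the other Cell Signaling's D61E4), 1 with a Flag antibody as negative control and 1 of input DNA. All 4 libraries, the controls included, came from keratinocytes of dorsal skin of C57BL6/CBA background with the K14deltaNLef1 genotype, a transgene that drives a truncated form of the Wnt effector Lef1 from the keratin 14 promoter of basal epidermal cells. The extraction protocol in the labels speaks of complexes of the truncated Lef1 as the material isolated, whereas Gata6 or Flag is named in the titles and as the antibody, and these were followed. The genotype of the first Gata6 library is written K14deltaNLef1N and was read as the same. Each carried a lentivirus that overexpressed Gata6, so the cells held added Gata6 besides their own, and all were grown on irradiated 3T3-J2 fibroblast feeders, themselves mouse cells. The age of the mice was not given, and the list holds no expression value against which the cell type could be checked.

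Gata6 is a zinc-finger transcription factor of the GATA family, which recognises the core letters GATA in DNA and often binds enhancers, stretches of regulatory DNA that can hold several sites for the same or for cooperating factors. In skin, Gata6 is known from cells of the upper hair follicle and the sebaceous duct, and forced expression of truncated Lef1 in the epidermis is known to favour sebaceous over hair fates. The question of the series was where on the genome Gata6 sits in these cells. Genes, sequences and motifs at the pairs were not analysed here, because they need a genome and annotation of mouse build mm9, on which the positions are given. Positions are 1-based.

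The list has no values per library, and its score is 0 in every row. What it does hold for each peak is a position, a width and a name made of the chromosome and a whole number, called the name number below. The labels do not define what that number counts. Peaks of a list share their libraries and are not replicates, so no test was made between close pairs and other peaks. The 95% intervals beside shares (Wilson) and medians (order statistics) cover counting error only.

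The middle 50% of the close pairs were between 517 and 822 bp apart. The midpoint distance had a median of 654 bp (95% interval 621 to 681) over the 409 pairs. The smallest distance was 343 bp and the largest 996 bp. Between the facing edges of the intervals lay 200 to 898 bp, with a median of 514 bp, so no paired intervals touched. Because distance chose the pairs, these values describe them and show nothing further.

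Pairs were not spread evenly over the allowed distances. Only 14 pairs lay over 300 and up to 400 bp apart, against 73 in the next 100 bp and 87 from 500 to 600 bp, the fullest step of 100 bp. From 600 to 1000 bp there were 58.8 pairs per 100 bp of distance. The decline went on beyond the limit, with 38.1 pairs of neighbours per 100 bp between 1 and 2 kb and 23.8 between 2 and 5 kb. The limit of 1 kb therefore cut through a falling curve and not through a gap.

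**Figure D1:**
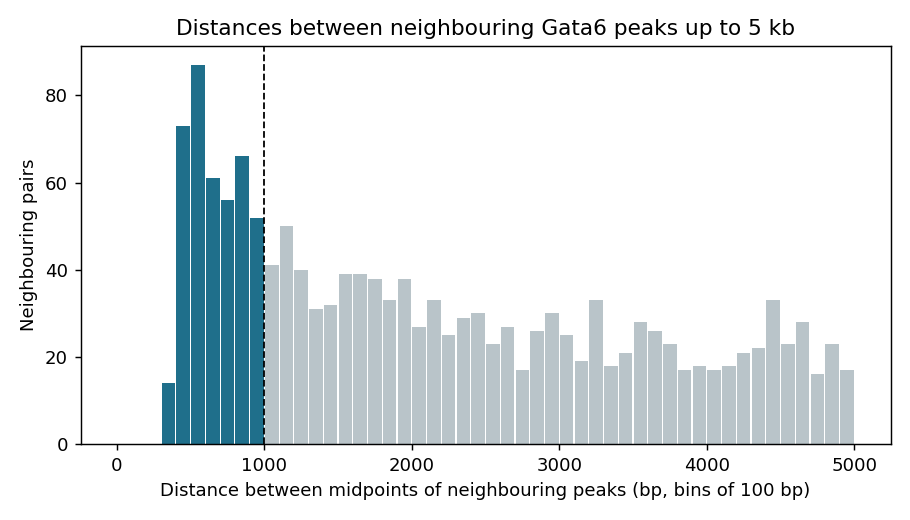
Number of pairs of neighbouring Gata6 peaks (vertical axis) by the distance between their midpoints in bp (horizontal axis, bins of 100 bp, up to 5 kb). Blue bars are the 409 pairs within 1 kb and grey bars are wider pairs, with the limit as a dashed line. No pair lies under 343 bp, and the fullest bin, from 500 to 600 bp, holds 87 pairs.

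The values on either side of the limit illustrate this. The 3 closest pairs were on chromosome 3 from 135101245 to 135101730 (343 bp, name numbers 1654 and 1655), again on chromosome 3 from 135352024 to 135352500 (343 bp, numbers 595 and 318), and on chromosome 6 from 136914290 to 136914772 (362 bp, numbers 1503 and 1319). The 3 pairs just inside the limit lay on chromosome 12 from 29283325 to 29284471 (992 bp), chromosome 18 from 32804463 to 32805615 (995 bp) and chromosome 6 from 134847843 to 134848955 (996 bp). The 3 just outside it, all 1001 bp apart, lay on chromosome 8 from 114270841 to 114271941, chromosome 9 from 99066478 to 99067602 and chromosome 15 from 66960539 to 66961699. The last of these carried the low numbers 60 and 30.

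The members of a close pair often had name numbers of similar rank. Numbers were ranked among the listed peaks of their chromosome, and ranks are given as percentiles, where a low percentile is a low number. The members of a pair differed by a median of 23.1 percentile points (95% interval 20.3 to 26.5, 409 pairs). For neighbouring peaks more than 5 kb apart the median difference was 29.2 points (28.7 to 29.8, 10614 pairs). In 218 of the 409 close pairs (53.3%, 48.5 to 58.1) the members lay within 25 points of each other, against 43.6% (42.6 to 44.5) of the neighbours over 5 kb apart. Very unequal pairs were fewer: 14.9% of close pairs (11.8 to 18.7) differed by more than 50 points, against 24.9% (24.1 to 25.8) of the neighbours over 5 kb apart. None of these intervals overlapped those of the wider neighbours.

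This likeness was not limited to the first kb. The 1094 pairs of neighbours from 1 to 5 kb apart had a median difference of 23.0 points (21.5 to 25.1), and 52.7% (49.8 to 55.7) lay within 25 points, so their intervals overlapped those of the pairs within 1 kb. At 5 to 20 kb the share was 44.3% (42.3 to 46.3), at 20 to 100 kb 42.7% (41.2 to 44.2) and beyond 100 kb 44.1% (42.5 to 45.6). Spearman's rank correlation of the name number percentiles of left and right peak, given as a description, was 0.31 within 1 kb and 0.25 from 1 to 5 kb, and lay between -0.02 and 0.04 in each of the 3 wider classes. All of these pairs come from the same libraries, and a peak with neighbours on both sides enters more than 1 pair.

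Inside the limit, the 87 pairs at most 500 bp apart were the most alike. Their median difference was 15.0 points (11.9 to 22.2), and 57 of them (65.5%, 55.1 to 74.7) lay within 25 points. Among the 322 pairs over 500 bp apart the median was 24.9 points (22.0 to 27.4) and 161 (44.6 to 55.4%) lay within 25 points, so the intervals of these shares overlapped slightly. In steps of 100 bp the share within 25 points was 71.4% at 300 to 400 bp (14 pairs), 64.4% at 400 to 500 bp and 52.9% at 500 to 600 bp. It stayed between 42.6 and 48.2% from 600 to 900 bp and stood at 61.5% (48.0 to 73.5) for the 52 pairs from 900 to 1000 bp, so the change with distance was not even. Over all 409 pairs, distance and percentile difference had a rank correlation of only 0.10.

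**Figure D2:**
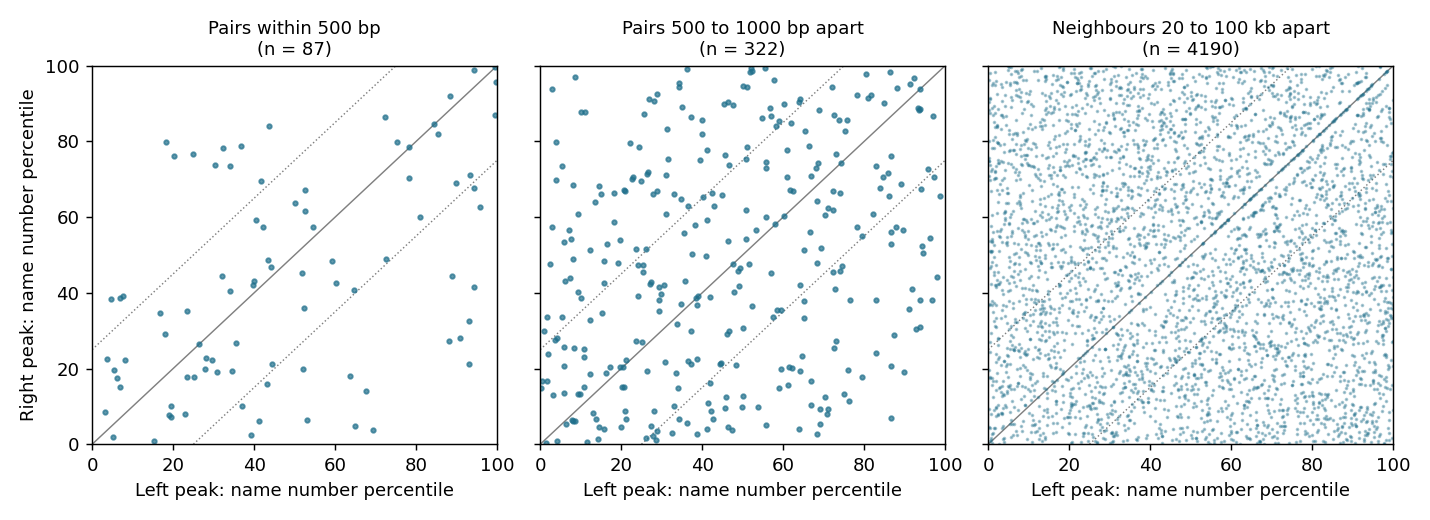
Name number percentile of the left peak (horizontal axis) and the right peak (vertical axis) of neighbouring Gata6 peaks, for pairs within 500 bp, pairs 500 to 1000 bp apart and neighbours 20 to 100 kb apart. Each point is a pair, the solid line marks equal percentiles and the dotted lines 25 points on either side. Of the 87 closest pairs 65.5% lie between the dotted lines, against 42.7% of the neighbours 20 to 100 kb apart, of which 115 have consecutive numbers and lie right beside the solid line.

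The same peaks were then compared with the neighbour on their other side. In sets of exactly 2 peaks, 777 members had a further listed peak on the side away from the partner, at a median distance of 41.1 kb. The partner was closer in name number percentile than that other neighbour for 462 of these members (59.5%, 56.0 to 62.9). The median difference was 23.3 points to the partner and 30.3 points to the other neighbour. For members with a partner at most 500 bp away the corresponding values were 68.2% (60.9 to 74.7), 14.8 points and 31.8 points. Both members of a pair enter this count, so its entries are not independent. In the 72 cases where the other neighbour also lay within 5 kb, it differed by a median of 21.7 points and the partner by 18.1 points, and the partner was closer in 58.3% (46.8 to 69.0).

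In windows of every density, a larger share of close pairs than of neighbours over 5 kb apart lay within 25 points. The intervals stood apart only in windows with few peaks, which does not show a dependence on density. Where the 1-Mb window of a close pair held fewer than 10 peaks, 58.0% of 143 pairs (49.8 to 65.8) lay within 25 points. In windows with 10 to 19 peaks 106 of 208 pairs did so (44.2 to 57.7%), and in windows with 20 or more 29 of 58 pairs (37.5 to 62.5%). For neighbours over 5 kb apart the same windows gave 43.3% (42.0 to 44.7), 43.6% (42.2 to 45.1) and 44.6% (41.6 to 47.6), so the intervals overlapped in both denser classes. The 3 intervals for close pairs overlapped each other too. Neighbours 1 to 5 kb apart gave 50.3% (45.2 to 55.4), 52.1% (48.0 to 56.3) and 60.0% (52.5 to 67.1). Each of these intervals lay above that of the neighbours over 5 kb apart in the same windows.

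Name numbers ran somewhat lower among the paired peaks than among the rest. The median number of the 808 peaks was 365 (95% interval 332 to 394), against 412 (401 to 422) for the remaining peaks, and the median percentile was 44.8 (41.6 to 47.8) against 50.5 (49.5 to 51.4). The highest 25% of the numbers of a chromosome held 19.7% (17.1 to 22.6) of the paired peaks and 25.4% (24.6 to 26.2) of the rest. The lowest 25% held 28.0% (24.99 to 31.2) against 24.7% (23.9 to 25.5), and these intervals overlapped. Seen from the numbers, 8.21% (6.79 to 9.89) of the peaks in the lowest 10% of their chromosome's numbers had a neighbour within 1 kb, against 5.24% (4.13 to 6.64) in the highest 10%. Peaks whose nearest neighbour was 1 to 5 kb away had values close to those of the paired peaks, with a median percentile of 44.7 (42.5 to 46.7) and 28.6% (26.7 to 30.6) in the lowest 25%.

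Pairs of a low-numbered and a high-numbered peak were scarce. In 47 of 409 pairs (11.5%, 8.75 to 14.9) both members were in the lowest 25% of numbers, against 6.06% (5.62 to 6.53) of neighbours over 5 kb apart. In 26 pairs (6.36%, 4.37 to 9.15) both were in the highest 25%, against 6.70% (6.24 to 7.19), so the intervals stood apart for low numbers and overlapped for high ones. Fewer of the paired peaks than of the rest were in the highest 25% at all (19.7 against 25.4%). These shares alone therefore do not show that members agreed less at high numbers. A member of the lowest 25% stood beside a member of the highest in 18 pairs (4.40%, 2.80 to 6.85), against 12.5% (11.9 to 13.2) of neighbours over 5 kb apart. For neighbours 1 to 5 kb apart these shares were 11.5, 6.03 and 5.48%, near those of the close pairs. In the 93 pairs with at least 1 member in the lowest 10%, the other member had a median percentile of 32.6 (25.7 to 40.2). In neighbours over 5 kb apart it was 54.1 (52.2 to 56.0). Only 8 of those 93 pairs (8.60%, 4.42 to 16.1) had both members in the lowest 10%, a share that overlapped the 5.40% (4.48 to 6.49) of the wider neighbours.

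The lowest-numbered pair lay on chromosome 10 from 116587517 to 116588625. Its peaks, numbers 10 and 3 of that chromosome, were 954 bp apart and measured 159 and 151 bp, and no other pair had both numbers at 10 or lower. A further 8 pairs joined a peak numbered 10 or lower to one with a higher number. In 5 pairs both numbers, taken as written and not as ranks, were 50 or lower, a set described after its values were seen. Besides the pair on chromosome 10, these lay on chromosome 15 from 101544266 to 101545055 (numbers 22 and 5), chromosome 9 from 43666008 to 43666616 (40 and 16), chromosome 17 from 28406680 to 28407309 (15 and 47) and chromosome X from 48596656 to 48597168 (49 and 33). The distances of these 4 pairs were 634, 445, 464 and 373 bp, beside 954 bp on chromosome 10. Of all 409 pairs, 87 were at most 500 bp apart. Distance and the lower percentile of a pair had a rank correlation of 0.01. Raw numbers are not ranks, and on chromosome X 49 and 33 stood at percentiles 25.1 and 17.7. Peaks numbered 50 or lower were 8.91% (7.14 to 11.1) of paired peaks and 7.68% (7.20 to 8.18) of the rest. Pairs of such low raw numbers were not counted among wider neighbours.

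At the other extreme, some close pairs joined numbers from both ends of the scale. The most unequal pair lay on chromosome 11 from 40242441 to 40243209, where numbers 28 and 2052 stood 613 bp apart, a difference of 90.8 percentile points between peaks of similar width (153 and 158 bp). It was followed by chromosome 9 from 57147703 to 57148698, with numbers 64 and 1437 (88.5 points), and chromosome 4 from 45598474 to 45599421, with numbers 962 and 45 (79.7 points). In the pair on chromosome 9 the widths were unequal too, at 166 and 63 bp.

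Consecutive name numbers were about as frequent in close pairs as elsewhere. They occurred in 12 of 409 pairs (2.93%, 1.69 to 5.06), against 3.03% (2.74 to 3.36) of neighbours over 1 kb apart. The lowest were numbers 182 and 183 on chromosome 5 (104198880 to 104199805), 266 and 267 on chromosome 1 (74772851 to 74773451) and 296 and 297 on chromosome 9 (66578466 to 66579333). The left peak carried the lower number in 217 pairs (53.1%, 48.2 to 57.8), an interval that includes 50%.

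Widths agreed little better inside close pairs than between other neighbours. The width here is that of the interval in the overlap list, not of a whole binding site. Members of a pair differed by a median of 21 bp (95% interval 18 to 24), against 24 bp (23 to 25) for neighbours over 5 kb apart, and 29.3% (25.1 to 33.9) were within 10 bp of each other, against 25.8% (24.9 to 26.6). Both pairs of intervals overlapped. For the pairs at most 500 bp apart the median was 18 bp (13 to 22), with 32.2% (23.3 to 42.6) within 10 bp. Equal widths occurred in 7 pairs (1.71%, 0.83 to 3.49), against 1.77% (1.54 to 2.04) of neighbours over 5 kb apart. Differences over 50 bp occurred in 22.5% (18.7 to 26.8), against 23.2% (22.4 to 24.1). The rank correlation of left and right width, given as a description, was 0.10 within 1 kb and 0.21 for pairs at most 500 bp apart. It was 0.06 from 1 to 5 kb and -0.003 over 5 kb, so any likeness in width was weaker than that in number.

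The widths themselves were those of the list in general. Paired peaks had a median width of 144 bp (142 to 147) and the remaining peaks 143 bp (142 to 144). Of the paired peaks 76 (9.41%, 7.58 to 11.6) were 83 bp wide or narrower, against 9.09% (8.58 to 9.64) of the rest. Both members were that narrow in 3 pairs (0.733%) and 1 of them in 74 pairs (18.1%), near the 0.735 and 16.6% of neighbours over 5 kb apart. Both members were 150 bp or wider in 80 pairs (19.6%, 16.0 to 23.7), against 15.6% (14.9 to 16.3) of neighbours over 5 kb apart. Where the members' widths were unequal, the lower-numbered one was the wider in 223 of 402 pairs (55.5%, 50.6 to 60.3), against 59.0% (58.0 to 59.9) of the neighbours over 5 kb apart. Across pairs, the differences in width and in number percentile had a rank correlation of 0.04.

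**Figure D3:**
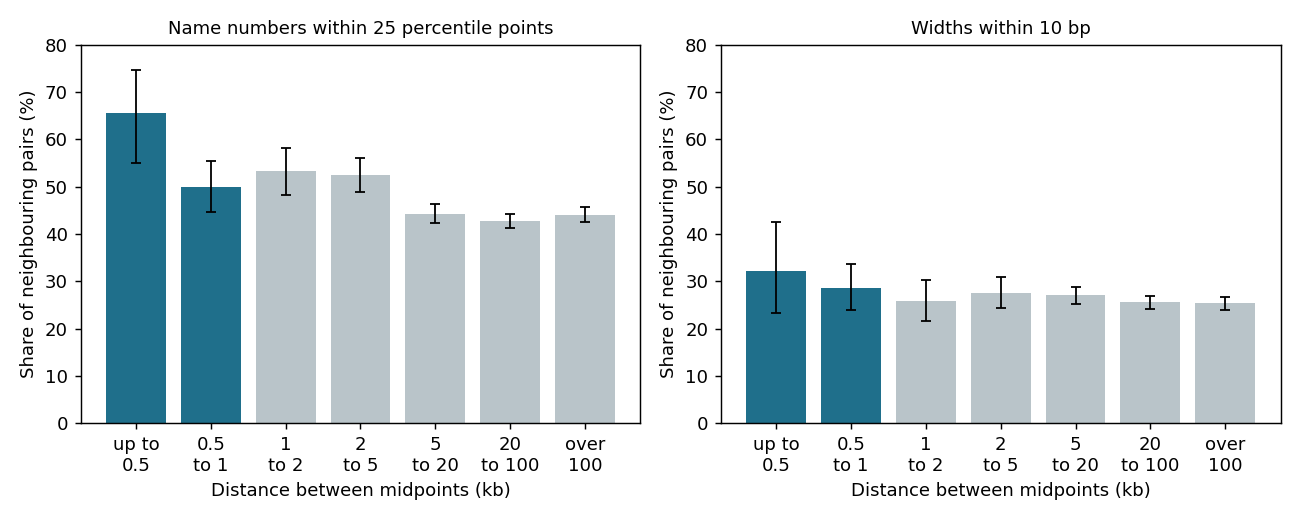
Share of neighbouring pairs in percent (vertical axes) whose name numbers lie within 25 percentile points (left) and whose widths lie within 10 bp (right), by midpoint distance in kb (horizontal axes). Blue bars are pairs within 1 kb, grey bars are wider neighbours, and error bars are 95% Wilson intervals. The left share goes from 65.5% at up to 0.5 kb to between 42.7 and 44.3% beyond 5 kb, while the right share stays between 25.3 and 32.2%.

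In 10 places 3 peaks followed each other at steps of at most 1 kb, and no longer chain occurred. From the first to the last midpoint these groups measured 1124 to 1610 bp. On chromosome 5 from 123585095 to 123586748 the 3 peaks carried the low numbers 62, 51 and 43, within 2.38 percentile points. Also on chromosome 5, from 104165628 to 104167114, number 4 stood between numbers 94 and 143. These were the groups with all 3 members in the lowest 25% of numbers. On chromosome 19 from 32144104 to 32145681, numbers 45 and 12 flanked number 203.

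The other groups were of mixed or high number. On chromosome 7 from 52780258 to 52781908 all members were high, with numbers 1039, 1402 and 1714. The remaining groups on chromosome 7 ran from 56777421 to 56778667 (595, 370 and 51) and from 89018858 to 89020616 (944, 549 and 285). On chromosome 17 they ran from 6959242 to 6960574 (309, 193 and 116) and from 26497823 to 26499344 (638, 127 and 272). Chromosome 6 had a group from 66985999 to 66987475 (603, 189 and 195) and chromosome 13 one from 98018583 to 98019959 (315, 594 and 775).

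The name numbers ran in a single direction along the chromosome in 6 of the 10 groups, and the middle peak had the lowest number in 3 and the highest in 1. This order was not counted for wider runs of 3 peaks, so the count describes these few groups only. The middle peak was 83 bp wide or narrower in 4 groups, with widths of 64, 74, 75 and 28 bp. None of the 20 outer peaks was that narrow, the narrowest measuring 94 bp. This contrast was noticed in the values and rests on few peaks.

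**Figure D4:**
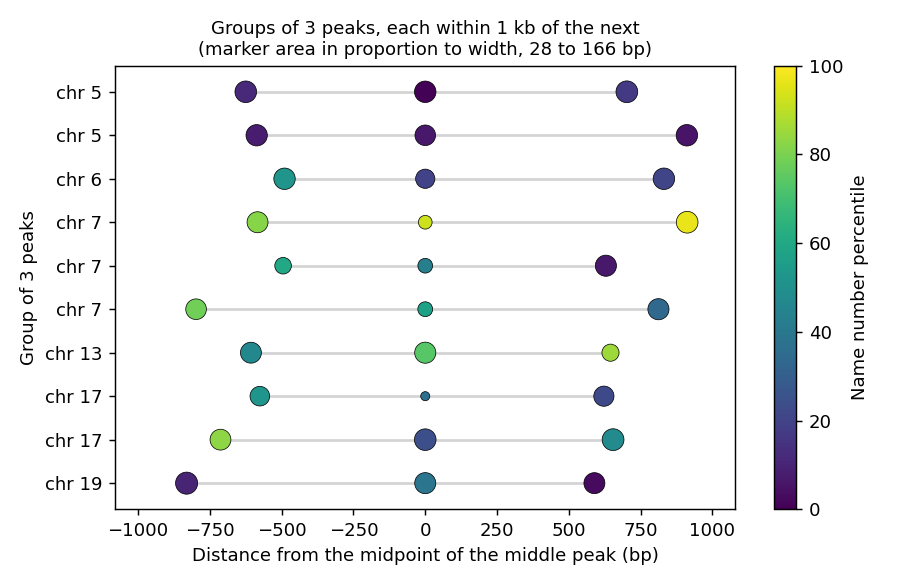
The 10 groups of 3 Gata6 peaks, 1 per row and labelled by chromosome, with the distance from the middle peak's midpoint in bp (horizontal axis). Marker area is in proportion to peak width and colour is the name number percentile, dark for low numbers. The small middle markers in 4 rows are the middle peaks of 28 to 75 bp, and the darkest rows are the 2 groups of low numbers on chromosome 5.

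Close pairs occurred on all 20 chromosomes of the list, in unequal shares. Chromosome 19 had 45 of its 426 peaks in them (10.6%, 7.99 to 13.8) and chromosome 1 had 86 of 911 (9.44%, 7.71 to 11.5). Both intervals lay above the 6.66% of the whole list. At the low end were chromosome 14 with 8 of 301 peaks (2.66%, 1.35 to 5.16) and chromosome 15 with 20 of 524 (3.82%, 2.48 to 5.82), and on chromosome X it was 6 of 175 (3.43%, 1.58 to 7.28). This order followed peak density only in part, with a rank correlation of 0.34 over the 20 chromosomes, given as a description. Chromosomes X and 14 were the sparsest, at 1.09 and 2.64 peaks per Mb of span, and chromosome 19 was among the densest at 7.36. By contrast, chromosome 11, with the most peaks per Mb of its span (8.09), had 5.84% (4.52 to 7.51), and chromosome 15 had a density of 5.26, above the 4.70 of chromosome 1. Per Mb of span, chromosome 19 held 0.397 pairs, chromosome 11 held 0.236 and chromosome X 0.0187.

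Agreement in number varied between chromosomes, with few pairs on each. Over the 18 chromosomes with at least 10 pairs, the share of pairs within 25 percentile points ran from 27.8% (12.5 to 50.9, 18 pairs) on chromosome 4 to 67.9% (49.3 to 82.1, 28 pairs) on chromosome 7. Chromosomes 6 and 5 stood near the top with 67.7% and 64.5% of 31 pairs each, and chromosomes 15 and 8 near the bottom with 30.0% of 10 and 31.6% of 19 pairs. With so few pairs each, the intervals of all 18 chromosomes overlapped one another. The interval of chromosome 4 only narrowly overlapped those of chromosomes 6 (50.1 to 81.4) and 7. No test between chromosomes was made.

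Close pairs were more frequent where peaks were dense, as they are by construction when peaks lie near each other. In 1-Mb windows with 1 to 4 peaks 2.80% (2.14 to 3.65) of peaks had a neighbour within 1 kb, against 6.12% (5.40 to 6.93) at 5 to 9 peaks, 7.81% (7.11 to 8.57) at 10 to 19 and 9.18% (7.70 to 10.9) at 20 or more. Windows of 20 or more peaks held 115 of the 808 paired peaks (14.2%, 12.0 to 16.8) and 10.0% (9.50 to 10.6) of the rest. This was not particular to the close pairs. Among peaks whose nearest neighbour was 1 to 5 kb away the share was 15.1% (13.6 to 16.8). Where it was over 5 kb away the share was 8.95% (8.39 to 9.55). The nearest listed peak outside the own pair or group was a median of 17.9 kb away for paired peaks, and for the remaining peaks the nearest peak was 21.6 kb away. It lay within 5 kb for 16.2% (13.8 to 18.9) of paired peaks and 17.7% (17.0 to 18.4) of the rest, and within 20 kb for 53.1% (49.6 to 56.5) against 47.9% (47.0 to 48.9).

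**Figure D5:**
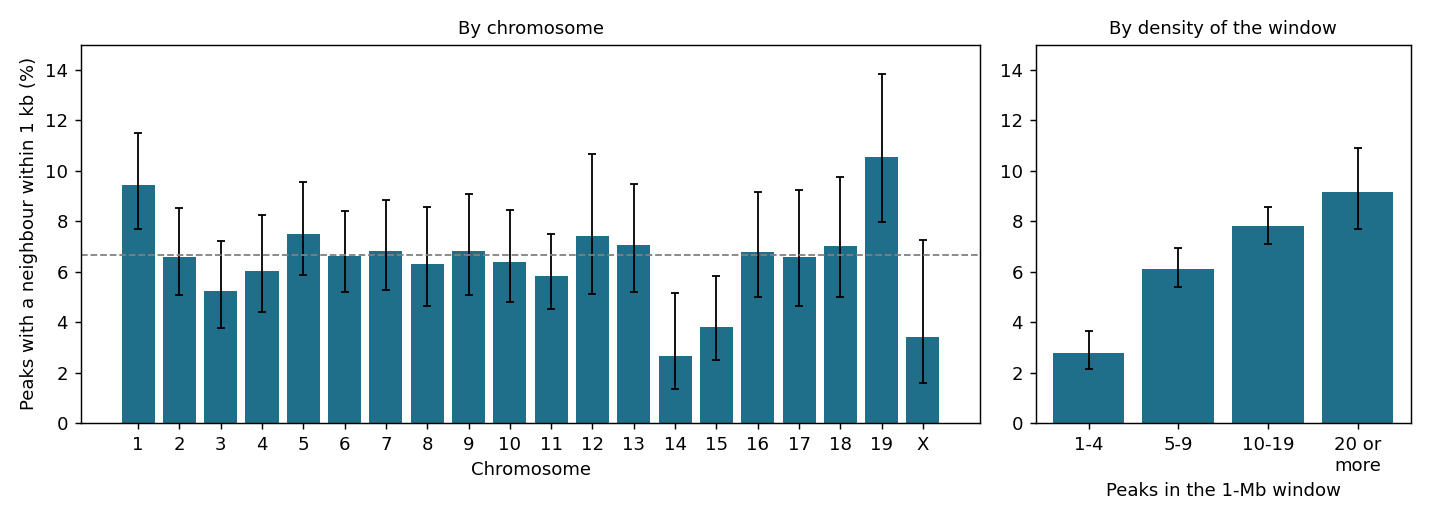
Share of Gata6 peaks with a neighbour within 1 kb in percent (vertical axes), by chromosome (left, with the share of the whole list dashed) and by the number of peaks in the 1-Mb window (right). Error bars are 95% Wilson intervals. Chromosome 19 reaches 10.6% and chromosome 14 stays at 2.66%, and the share goes from 2.80% in the sparsest to 9.18% in the densest windows.

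The pairs were scattered over many windows. Of 1861 1-Mb windows with a peak, 326 held a close pair, and in 262 of these it was a single one. In 3 windows there were 4 pairs, the highest number seen. The fullest window of the list, on chromosome 7 from 119000001 to 120000000, held 39 peaks but only 2 close pairs, and the window with the next most peaks, on chromosome 5 from 91000001 to 92000000, held none among 32. These 2 windows were therefore not among those with most close pairs, whereas the window on chromosome 1 described next, with 31 peaks, was. Over all windows the share of paired peaks rose with density, as given above.

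The 3 windows with 4 pairs differed in kind. On chromosome 3 from 135000001 to 136000000 were both of the pairs 343 bp apart, the smallest distance in the list, together with pairs of 771 and 973 bp, among 24 peaks. On chromosome 1 from 137000001 to 138000000, with 31 peaks, the pairs were 463 to 887 bp apart. There, numbers 1822 and 1542 and numbers 556 and 509 were alike, within 5.38 and 3.18 percentile points, whereas 62 stood beside 416 and 73 beside 555. On chromosome 9 from 43000001 to 44000000, with 19 peaks, the pairs were 445 to 933 bp apart. It held the low pair of numbers 40 and 16, and 3 unequal pairs of 666 and 358, 446 and 73, and 1149 and 319.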

How the data were processed

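The deposited table is 1 overlap list of Gata6 peaks for 4 libraries, with start, end, name, score and strand. Per the submitters' processing notes, BWA and HOMER were used with build mm9; versions and roles are not given there, nor how peaks were called against the control libraries, at what threshold, or how lists were overlapped. The score deposited by the authors is 0 in every row, so it gives no peak strength, and library depth is unknown.

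Midpoints were floor((start + end)/2) of 1-based coordinates. Peaks with another midpoint at most 1000 bp away on their chromosome were taken, and every pair of neighbours within that distance was a close pair. Name numbers were ranked within chromosomes among listed peaks. Wider neighbours served as the comparison. No test was run, since peaks are not replicates. Python 3.11.15, NumPy 2.4.6, pandas 2.3.3, SciPy 1.17.1 and matplotlib 3.10.9 were used, and pair finding was tested on simulated positions. The peaks, measures and lists were chosen with earlier results of these data known. Pairs were named by rule: the 3 closest, the 3 on either side of the limit, groups of 3, both numbers at 10 or lower, the 3 most unequal, the 3 lowest consecutive, and windows with 4 or more pairs. A GRCm38 gene table belongs to another build and was not used.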

Additional observations from a re-analysis of the deposited data

How the results depend on the processing

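Of 56 alternative values, 1 of them added after seeing the data, 40 counted as kept. Kept meant a count within 1.5 times or a value within its interval. For the median share of paired peaks per chromosome, which has no interval, it meant a change below the standard deviation between chromosomes. With limits of 500 and 2000 bp the number of peaks was 174 and 1539, by construction. With the limit of 500 bp the median number difference was 15.0 percentile points, the share within 25 points 65.5% and the median width 141 bp. With numbers divided by the highest of the chromosome the median difference was 14.0 and the share 70.2%, against 20.3 and 57.8% for neighbours over 5 kb apart. A limit of 10 points gave 24.7%. Without peaks of 83 bp or narrower the median width was 147.5 bp, the median width difference 15 bp, the share within 10 bp 36.1% and the share in windows of 20 or more peaks 11.9%, against 7.64% of the rest. Width limits of 5 and 20 bp gave 16.9 and 49.9%. Width agreement of wider neighbours was not measured under these settings, so the values do not compare close pairs with others. Windows with 15 or more peaks held 33.8% of paired peaks and 24.4% of the rest, and windows moved by 500 kb 11.9% (9.83 to 14.3) against 9.24% (8.72 to 9.79), intervals that nearly met. The cause was not tested for settings whose construction does not give it. The 4 alternatives on transcription starts and motifs were not run, for want of build mm9. No paired analysis was possible because the list holds no values per replicate, and no library could be left out. Depth decides which sites reach the list, and its effect was not measured.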
